A study of Mus musculus with 12 samples.

Results

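The comparison was the diet by genotype interaction of a diet-by-genotype study of mouse embryos, that is, whether loss of Cited2 changed transcripts differently when the mother ate a high-fat diet than when she ate a control diet. It was computed per probe as the knockout minus wildtype difference on the high-fat diet minus the same difference on the control diet, both on the log2 scale. A positive interaction means that the knockout stood higher against wildtype on the high-fat diet than on the control diet. By its definition it drew on every sample of the series, 12 of 12 embryos, in 4 groups of 3.

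All embryos were of the C57BL6/J strain and were collected at 8.5 days post coitum. The groups were wildtype embryos of mothers on the control diet, Cited2 -/- (knockout) embryos of control-fed mothers, wildtype embryos of mothers fed high fat, and Cited2 -/- embryos of mothers fed high fat. Every mother was Cited2+/- and was mated to a Cited2+/- male, so maternal heterozygosity was shared by all groups, the wildtype controls included. The diets began at 6 weeks of age, ran for 8 weeks before mating and continued in pregnancy. The yolk sac and allantois were removed from each embryo and somites were counted, but the sources used here give no somite number per embryo. The sample titles carry 6 numbers, each on 1 knockout and 1 wildtype embryo of the same diet, and nothing states whether those embryos shared a litter. P-values therefore measure the spread between embryos, whatever they shared.

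CITED2 is a nuclear protein that binds the co-activators CBP and p300 and recruits them to, or competes them away from, transcription factors such as the AP-2 family and HIF-1α. Mouse embryos without it are known for malformed hearts, disturbed left-right patterning, and defects of neural crest and neural tube. In left-right patterning, NODAL is the ligand that spreads through the left lateral plate, and LEFTY1 (midline) and LEFTY2 (left lateral plate) are its secreted inhibitors. The study's question was how maternal diet and this genotype act together.

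Each embryo was hybridised to its own 1-colour Illumina array, and per embryo 16584 to 18853 of its 45281 probes had a signal above background (detection p under 0.01). By the scatter between beads of a probe the arrays were cut into 2 sets of 6 at the largest gap, 1.45 percentage points, the next largest being 1.33. The median coefficient of variation was 22.0% to 24.3% for set A and 25.8% to 29.4% for set B. The cut was taken from these data, and the sources used here do not say what the sets are. Set A contained the embryos numbered 1 of all groups and those numbered 2 of the high-fat groups, so each group was spread over both sets. Interaction values are also given within each set. They rest on 1 embryo of each control group in set A and on 1 embryo of each high-fat group in set B. Xist, the X-inactivation transcript, was detected in 1 of 3 embryos of each of the control wildtype, control knockout and high-fat wildtype groups and in 3 of 3 high-fat knockout embryos. The sex of the embryos is not in the labels, and this imbalance runs along the interaction contrast itself.

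No probe passed in the interaction. Of 19595 tested probes, 0 (0%) had an adjusted p under 0.05 (limma, Benjamini-Hochberg), and the smallest adjusted p was 0.99996. At an unadjusted p under 0.05 stood 247 probes (1.26%), of which 142 (0.725%) were higher and 105 (0.536%) lower. This is less than the share of 0.05 that p-values give when no probe changes. The share was 2.77% with the array set as a block and 4.56% with the array set and title number as a random block. Why it was low was not tested. The count of adjusted calls was 0 under each of 28 alternative settings as well, with a smallest adjusted p of 0.255, reached with array weights.

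The size of what could have been seen is set by the error. The median standard error of an interaction was 0.264 on the log2 scale and the median 95% interval reached 0.577 to either side, or 0.470 with the array set as a block. For 15240 probes (77.8%) the interval lay within 1 log2 unit of 0, so a change of the measured genotype effect by more than 2-fold lay outside it. Near background, differences are compressed, and a short interval there does not limit the change in RNA. Of the 19595 tested probes, 14496 were detected on all 12 arrays. Probes with wider intervals were not measured well enough for a statement about 2-fold changes. Estimates beyond 1 log2 unit in size numbered 51 (0.260%), and none of them passed.

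The estimated genotype effects on the 2 diets were only loosely related. Over the tested probes their Pearson correlation was 0.357 and their Spearman correlation 0.153, and 53.7% had the same sign. This is a description across probes of the same embryos, with no test. The standard deviation of these estimates over probes was 0.186 on control and 0.224 on high fat, against a median standard error of 0.187. With a spread so close to the error, equal true effects could also correlate weakly. The correlation therefore does not show whether the genotype effect depended on diet. Interaction estimates made separately from set A and set B had a Pearson correlation of −0.139 across probes, so the sets did not order the probes alike.

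**Figure D1:**
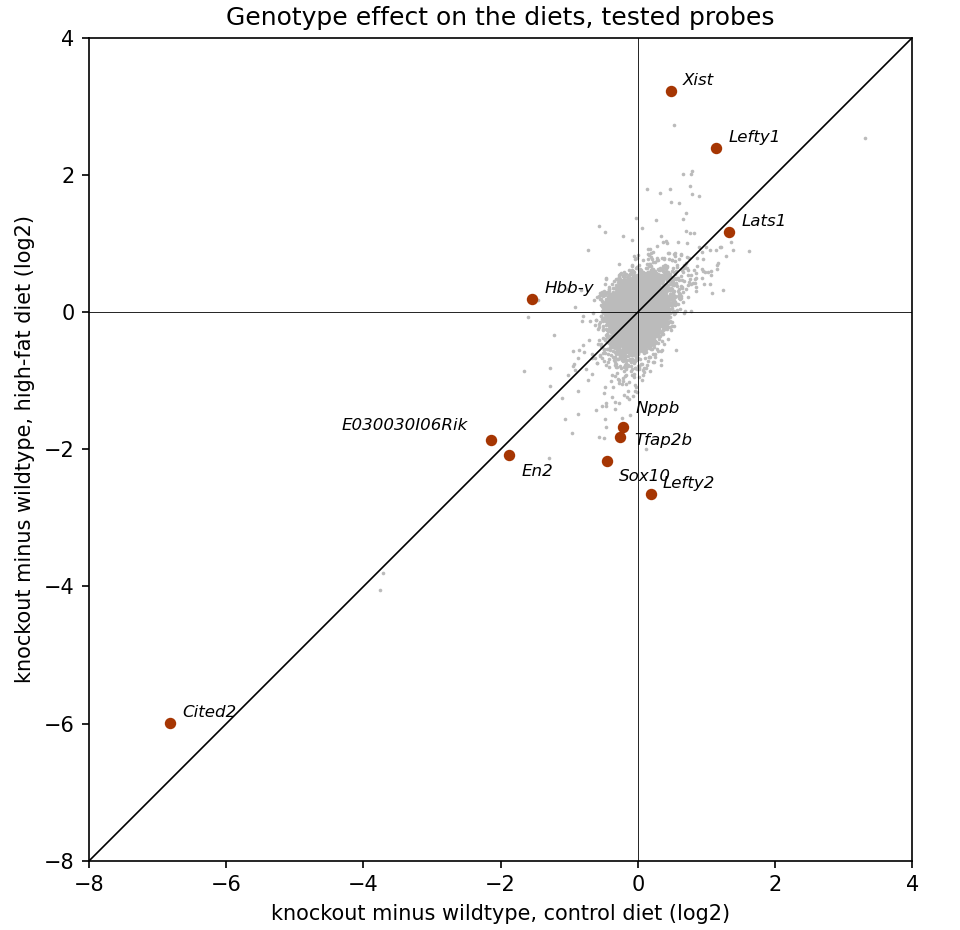
Log2 difference between knockout and wildtype embryos in control-fed (x axis) and high-fat-fed (y axis) mothers, 1 point per tested probe, with the diagonal of equal effects. Named genes are in brown: En2, E030030I06Rik and Lats1 lie near the diagonal and Cited2 lies 0.83 above it, while Lefty2, Sox10, Tfap2b and Nppb lie below it and Xist, Lefty1 and Hbb-y above it, none of them with an interaction that passed.

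The knocked-out gene was the check of the labels. At its brightest probe Cited2 had normalized log2 signals of 11.32, 11.38 and 11.90 in control wildtype replicates 1 to 3 and of 10.94, 11.19 and 11.64 in the high-fat wildtype embryos. In the knockouts it was 4.79, 4.65 and 4.69 on the control diet, undetected in each, and 4.38, 4.57 and 6.85 on the high-fat diet, where replicate 3 was detected. High-fat knockout replicate 3 was also detected at another Cited2 probe, at 5.39, and undetected at the remaining one. Knockout and wildtype did not overlap on either diet. The interaction was 0.83 ± 0.71 (standard error), 0.04 without high-fat knockout replicate 3, and −0.08 ± 0.31 and −0.29 ± 0.33 at the other Cited2 probes. The sources used here do not place these probes against the deleted part.

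Genes other than Cited2 that differed between the genotypes averaged over diets had no interaction that passed. In that averaged effect 14 probes passed (0.0714%), and they stood for Cited2, 9 other named genes and unnamed probes. For all 9 of these genes, read at the brightest probe, knockout and wildtype embryos stood in the same order without overlap on both diets. Such an order held for 0.505% of all probes, and the selection on the averaged effect favours it. At the brightest probe of each gene the interactions ran from −0.49 to 0.27. The lowest was that of Flrt1, whose passing probe gave 0.47. For 6 of the 9 the 95% interval at that probe lay within 1 log2 unit of 0. Lats1 and Csmd3 are among them, and their intervals set no limit, as given below. The intervals of En2, E030030I06Rik and Flrt1 reached beyond 1 log2 unit. Linkage of these 9 genes to the Cited2 locus was not tested.

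Lats1, a kinase of the Hippo growth-control pathway, was undetected in all wildtype embryos and lay between 5.43 and 6.23 in the knockouts. Its genotype effect was 1.33 on control and 1.17 on high-fat feeding, with an interaction of −0.16 ± 0.26 (95% interval −0.72 to 0.40). Adat2, which encodes the catalytic part of a tRNA-editing deaminase, had effects of 1.13 and 0.90 and an interaction of −0.23 ± 0.20 (interval −0.67 to 0.20). Because Lats1 was undetected in all wildtype embryos, its genotype effects are lower bounds, at least 1.78-fold and 1.50-fold, and its interval does not limit how far the diet changed the response. The same limit holds for Csmd3, also undetected in all wildtype embryos.

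Meox1, a homeobox gene of the somites, was lower in knockouts by 0.79 (control diet) and 0.59 (high-fat diet). Its interaction was 0.20 ± 0.19 (interval −0.22 to 0.62). Hebp2, a haem-binding protein gene, had effects of −1.28 and −1.08 and an interaction of 0.20 ± 0.21 (interval −0.26 to 0.67). At the other Hebp2 probe, near background, the effects were −0.05 and 0.15 and the groups overlapped on both diets. Cldn10, a tight-junction claudin gene, had an interaction of 0.17 ± 0.21, and Csmd3, which encodes a large transmembrane protein, one of 0.02 ± 0.19.

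En2, the homeobox gene of the midbrain-hindbrain boundary, had signals of 7.03, 8.00 and 7.24 in control wildtype and of 5.53, 5.76 and 5.36 in control knockout embryos. On the high-fat diet they were 6.13, 6.48 and 7.25 in wildtype and 4.63, 4.41 and 4.58 in knockout embryos, undetected in all of the latter. The high-fat genotype difference is therefore a bound, at least 2.62-fold lower in the knockout. The interaction was −0.20 ± 0.41, with an interval of −1.10 to 0.69.

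Flrt1, a gene for a leucine-rich transmembrane protein, had probes that disagreed in sign. Its brightest probe gave an interaction of −0.49 ± 0.42 and its other probe, the one that passed in the averaged effect, gave 0.47 ± 0.26.

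The left-right genes included the interaction of largest size among all tested genes, that of Lefty2. Of the 20 genes on the left-right list 12 were tested, 8 of them with a positive and 4 with a negative interaction. Their median was 0.04, against −0.02 over the 10764 tested genes. Over all tested genes 45.3% were positive, which is the share to set beside each list count given below. None passed. Because whole embryos were measured, fewer cells of a type and less RNA per cell cannot be told apart in any of these values.

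Nodal, the ligand, lay at 6.01, 5.46 and 5.44 in control wildtype embryos and at 4.71 (undetected), 7.43 and 7.22 in control knockouts. On the high-fat diet it was 7.50, 6.12 and 5.23 in wildtype and 6.35, 7.99 and 6.35 in knockout embryos. The groups overlapped on both diets. The interaction was −0.20 ± 1.04, with an interval of −2.47 to 2.06.

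Lefty1, the midline inhibitor, was undetected in all 3 control wildtype embryos (4.43, 4.87 and 4.93) and lay at 4.98 (undetected), 5.65 and 7.02 in the control knockouts. On the high-fat diet it was 5.38 and, undetected, 4.65 and 4.74 in wildtype embryos, and 6.89, 8.83 and 6.22 in knockouts. Every knockout thus lay above every wildtype embryo of its diet, and neither genotype effect nor interaction passed. The interaction was 1.25 ± 0.86 (interval −0.63 to 3.13), 2.29 within set A and 0.05 within set B, and from 0.49 to 1.82 when embryos were left out in turn.

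Lefty2, the lateral-plate inhibitor, had the most negative interaction of the 10764 genes. It lay at 6.91, 4.59 (undetected) and 5.28 in control wildtype embryos and at 4.59 (undetected), 7.66 and 5.08 in control knockouts, so that on the control diet the groups overlapped fully. In high-fat wildtype embryos it was 9.00, 7.73 and 5.45, and in high-fat knockouts it was undetected in all 3, at 4.66, 5.13 and 4.41. There the groups did not overlap, and the wildtype mean was at least 4.47-fold higher.

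The interaction of Lefty2 was −2.84 ± 1.32 with an interval of −5.73 to 0.04 (limma, unadjusted p = 0.0527, adjusted p = 0.99996). It was −1.14 within set A and −2.49 within set B, and from −3.81 to −1.90 with embryos left out in turn. The genotype effect was 0.18 on the control diet and −2.66 on the other. Within each group except the high-fat knockout the 3 embryos spanned over 2 log2 units.

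Foxh1, the transcription factor through which NODAL acts on its targets, had an interaction of 0.62 ± 0.50 at the brightest probe and 0.76 ± 0.46 at the other. Nearer to 0, Gdf1, the TGF-β family partner of NODAL, had 0.12 ± 0.18, and the activin receptor gene Acvr2b had 0.02 ± 0.19.

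**Figure D2:**
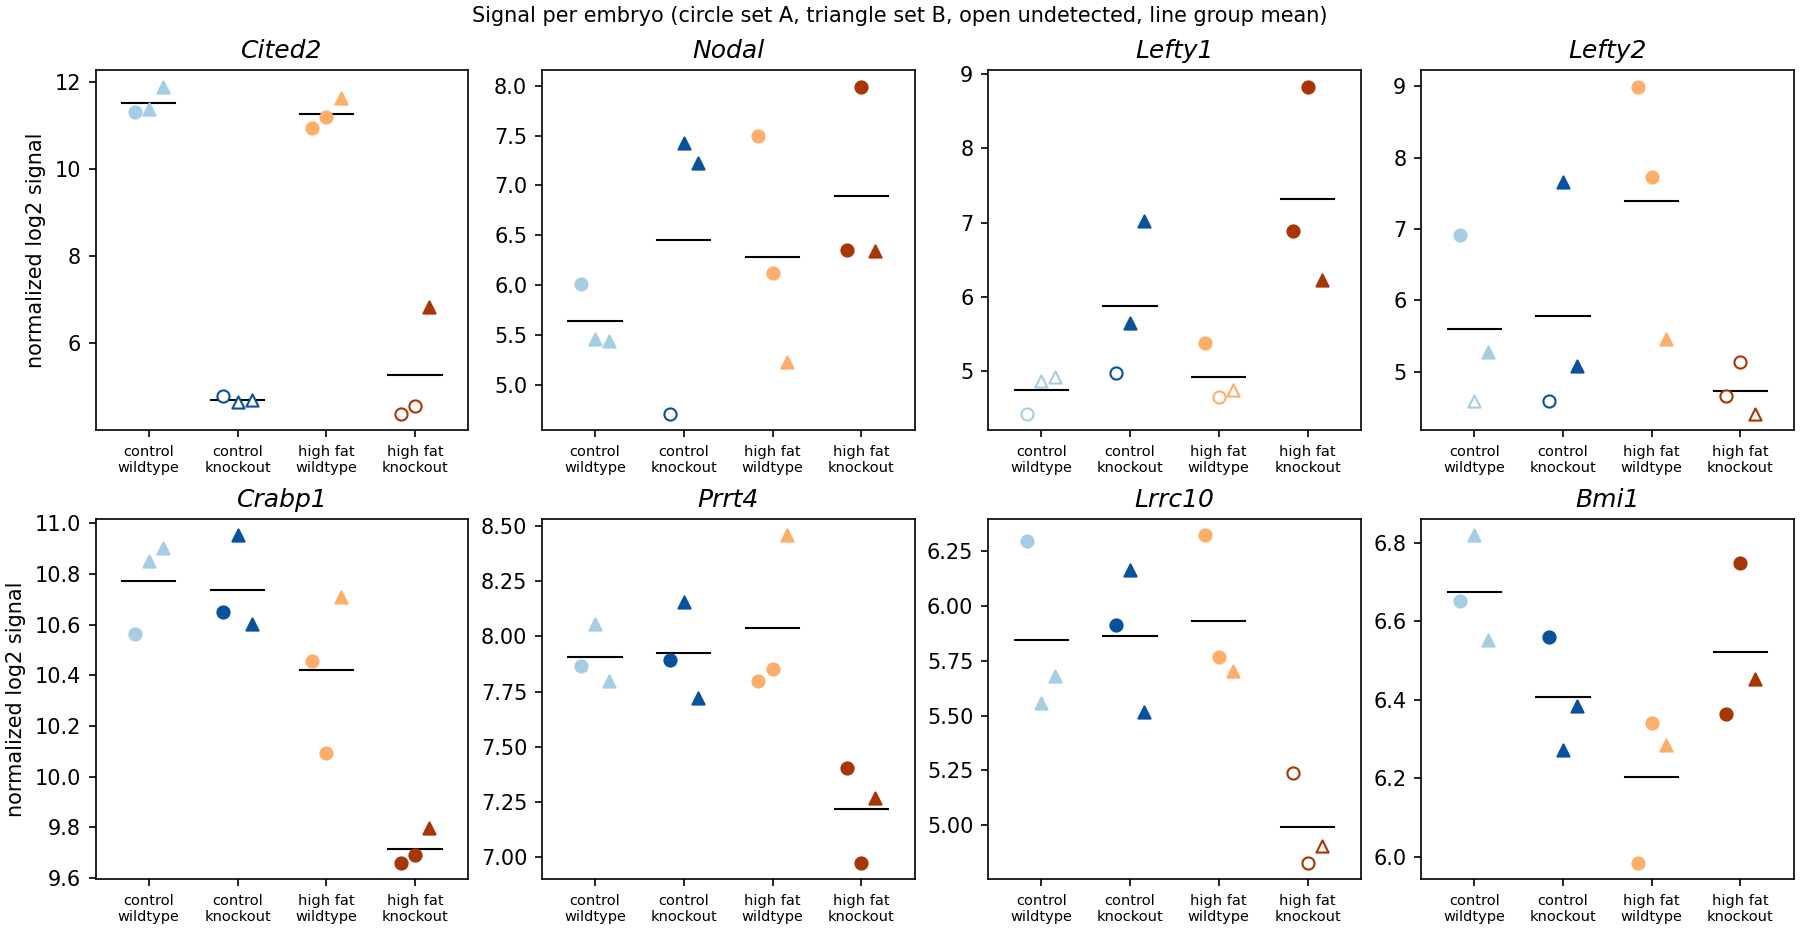
Normalized log2 signal of 8 genes in each embryo, by group (x axis), with circles for array set A, triangles for set B, open symbols for undetected probes and a line at each group mean; y axes differ and do not start at 0. Lefty2 is undetected in all 3 high-fat knockouts, Crabp1, Prrt4 and Lrrc10 lie below all other embryos there, and the Bmi1 group means stand in opposite order on the diets.

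The genes with the smallest p in each direction, 12 higher and 12 lower, did not pass and are given as the strongest estimates the design produced. Their sizes ran from 0.47 to 0.96 on the log2 scale and their unadjusted p from 0.00336 to 0.0196, or 0.00275 to 0.0164 with the array set as a block. All 24 had the same sign in set A and set B, which selection for small p over all embryos favours, and their intervals are likewise a description. Most were dim: 11 of the higher and 9 of the lower genes had a mean log2 signal under 6, and only 1 and 3 were detected on all 12 arrays.

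Among the 12 lower genes, 10 had knockouts below wildtype without overlap on the high-fat diet (3.67% of all probes did). The genes were picked on these values, so nothing is read from that count. Crabp1, the cellular retinoic acid binding protein gene of cranial neural crest and hindbrain, was the brightest of them apart from Pacs2. It lay at 10.56, 10.85 and 10.90 in control wildtype, 10.65, 10.95 and 10.60 in control knockout, 10.46, 10.09 and 10.71 in high-fat wildtype and 9.66, 9.69 and 9.80 in high-fat knockout embryos. The high-fat knockouts were the lowest 3 of the 12 embryos and the other groups overlapped. The interaction was −0.67 ± 0.24 (interval −1.20 to −0.14), −0.69 within set A and −0.81 within set B, and −0.44 with Xist detection as a covariate, a setting chosen after seeing the data.

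Prrt4, a gene for a proline-rich transmembrane protein, showed the same order. It lay between 7.72 and 8.46 in the other 9 embryos and at 7.41, 6.98 and 7.27 in the high-fat knockouts. The interaction was −0.84 ± 0.28, −0.66 within set A and −1.20 within set B.

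Lrrc10, a heart-restricted gene for a leucine-rich repeat protein of the sarcomere, lay at 6.30, 5.56 and 5.68 in control wildtype and 5.91, 6.16 and 5.52 in control knockout embryos. It was 6.32, 5.77 and 5.70 in high-fat wildtype embryos and 5.24, 4.83 and 4.90, all undetected, in high-fat knockouts. The high-fat wildtype mean was at least 1.62-fold above the knockout mean, and the interaction was −0.96 ± 0.34. Mdga2, a neuronal cell-adhesion gene, was detected in the other 9 embryos and in 0 of 3 high-fat knockouts, at least 1.36-fold lower, with an interaction of −0.68 ± 0.19.

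Pacs2, a gene for a membrane-trafficking sorting protein, was the brightest of the lower genes and changed order. In control embryos it lay at 10.48, 10.43 and 10.30 in wildtype and at 10.60, 10.66 and 10.51 in knockouts, and in high-fat embryos at 10.60, 10.62 and 10.75 in wildtype and at 10.38, 10.49 and 10.25 in knockouts. Groups did not overlap on either diet. The interaction was −0.47 ± 0.17 (interval −0.84 to −0.10). Rad51b, a gene of homologous recombination, and Scn2a, a voltage-gated sodium channel gene, had the same crossed order at low signals, with −0.60 ± 0.18 and −0.48 ± 0.16.

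The other lower genes were Slc2a6, a facilitated sugar transporter gene (−0.91 ± 0.26), Parp4, of the poly-ADP-ribose polymerase family (−0.72 ± 0.23), Pramel13 (−0.66 ± 0.25), 6430411K18Rik (−0.91 ± 0.32) and the immunoglobulin constant-region gene Ighg1 (−0.58 ± 0.18). Slc2a6 and Rad51b were undetected in all high-fat knockouts. Ighg1 was undetected in all control wildtype embryos.

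Among the 12 higher genes, 11 had a knockout mean below wildtype on the control diet and all 12 had one above wildtype on the high-fat diet. On the high-fat diet 6 of the 12 did not overlap (2.57% of all probes had knockouts above wildtype), again in genes picked on these values. Bmi1, a Polycomb repressor gene that is a reported target of CITED2 regulation, was the only one detected in all embryos. It lay at 6.65, 6.82 and 6.55 in control wildtype, 6.56, 6.27 and 6.39 in control knockout, 5.98, 6.34 and 6.28 in high-fat wildtype and 6.36, 6.75 and 6.45 in high-fat knockout embryos. On the control diet the knockouts overlapped with wildtype by 1 embryo, on the high-fat diet all knockouts lay above, and the interaction was 0.59 ± 0.22 (interval 0.11 to 1.06), 0.49 within set A and 0.53 within set B.

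Osr2, an odd-skipped zinc-finger gene, had the smallest p of the higher genes at its brightest probe. It lay at 5.22, 5.44 and 5.33 in control wildtype and at 4.94, 4.48 and 5.04, all undetected, in control knockouts, then at 5.29, 5.40 and 5.22 in high-fat wildtype and 5.51, 5.59 and 5.66 in high-fat knockout embryos. Its groups did not overlap on either diet and stood in opposite order. The interaction was 0.79 ± 0.22 there and −0.32 ± 0.20 at the other Osr2 probe, so the probes disagreed in sign. Prkdc, the catalytic subunit gene of the DNA-dependent protein kinase, likewise gave 0.81 ± 0.29 at its brightest probe and −0.23 ± 0.20 at the other.

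The remaining higher genes were Steap4, a metalloreductase gene (0.95 ± 0.28), Plpp4, a phospholipid phosphatase gene (0.83 ± 0.30), Edem1, of the endoplasmic reticulum degradation pathway (0.79 ± 0.27), Snhg17, a small nucleolar RNA host gene (0.79 ± 0.25), and Ttll2 (0.78 ± 0.27). Chrnb2, a nicotinic receptor subunit gene, had 0.74 ± 0.23 and Tnfsf10, which encodes the death ligand TRAIL, 0.68 ± 0.23. Tapbp, of antigen loading, had 0.64 ± 0.24 and Arhgap42, a gene for a GTPase-activating protein, 0.61 ± 0.19. Each of these 9 genes was undetected in at least 1 embryo.

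**Figure D3:**
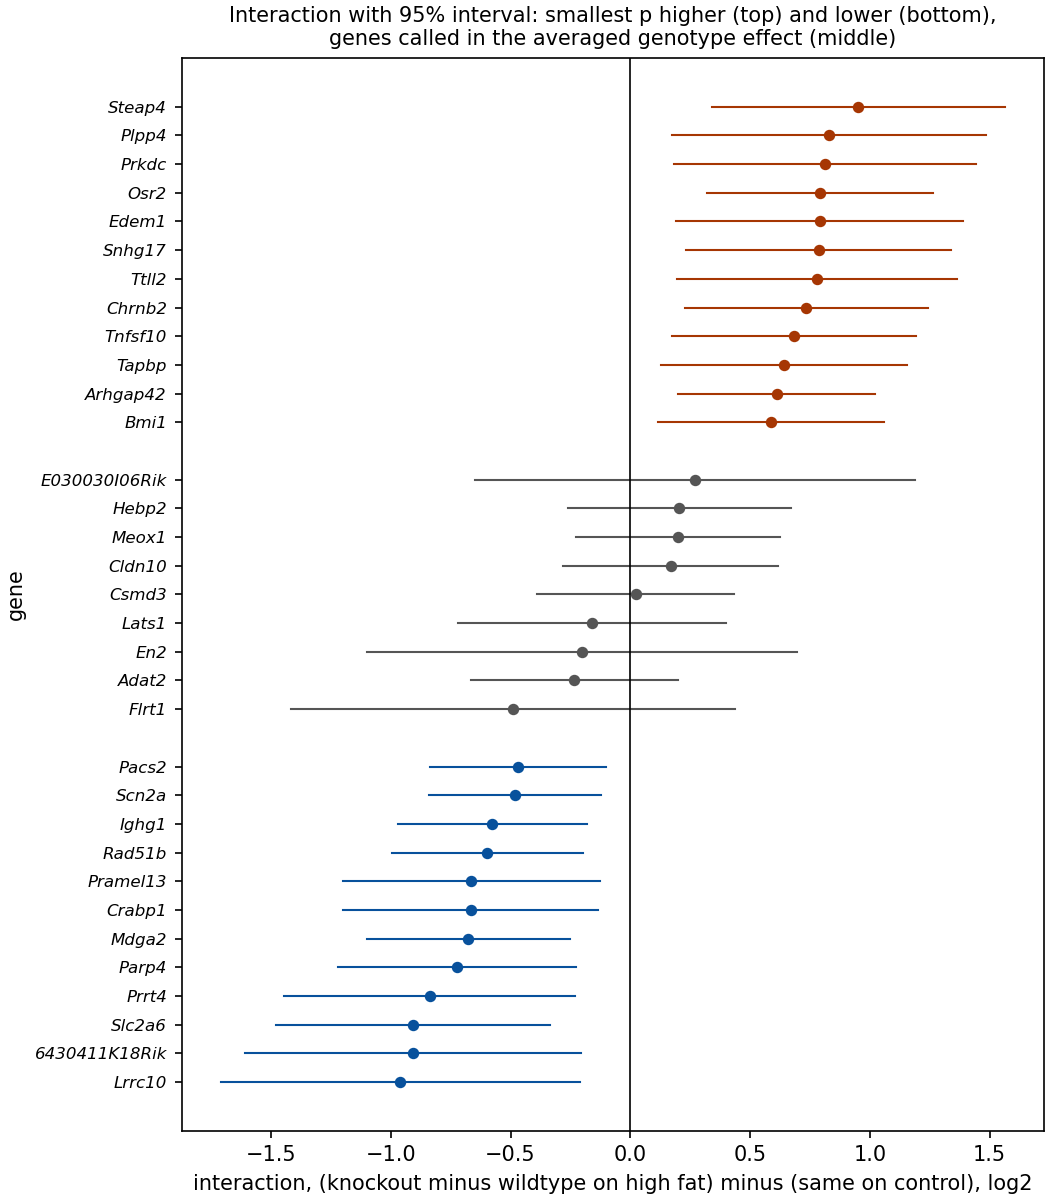
Interaction estimate (point) and 95% interval of limma (line) on the log2 scale for the 12 genes of smallest p with a higher value (top), the 9 genes other than Cited2 that were named from the averaged genotype effect (middle) and the 12 genes of smallest p with a lower value (bottom). The top and bottom genes were selected for small p and none passed after adjustment, while all 9 middle intervals include 0.

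The 3 smallest p over all probes belonged to probes with no gene name in the annotation used here. ILMN_3118071 was bright, with 11.06, 10.99 and 10.77 in control wildtype, 11.00, 11.16 and 10.92 in control knockout, 11.52, 11.13 and 11.13 in high-fat wildtype and 10.46, 10.54 and 10.17 in high-fat knockout embryos. The high-fat knockouts lay below the other 9 embryos. Its interaction was −0.96 ± 0.22 (limma, unadjusted p = 0.00103), −0.77 within set A and −1.12 within set B, and −1.04 to −0.83 with embryos left out in turn. ILMN_2485408 had 0.81 ± 0.19 (limma, unadjusted p = 0.000967, the smallest of all) and ILMN_1259244 had −0.86 ± 0.20, both near background.

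A crossed order, with knockouts wholly above wildtype on a diet and wholly below on the other, was found for 20 of 19595 probes (0.102%), 9 of them (0.0459%) above on the control diet and 11 (0.0561%) above on the high-fat diet. The same order without overlap on both diets was more frequent, with 99 probes (0.505%). Groups that overlapped on the control diet and not on the high-fat diet numbered 1104 (5.63%), and those with the reverse 872 (4.45%).

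Cardiac contractile genes leaned together toward lower values in high-fat knockouts. Of 26 genes on the sarcomere and muscle list 21 were tested, and 20 had a negative interaction, with a median of −0.54, against 54.7% negative and a median of −0.02 over all tested genes. None had an unadjusted p under 0.05; the lowest was 0.105 in limma, or 0.0905 with the array set as a block. The members share the heart tube of the same 12 embryos, so their count is not a count of independent observations. On the high-fat diet 6 of the 21 genes (28.6%) had all knockouts below all wildtype embryos, where 3.67% of probes did, and on the control diet 1 did, Myl2, against 2.78% of probes.

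The mean over the 21 genes lay at 9.45, 9.52 and 9.55 in control wildtype, 9.70, 9.56 and 8.69 in control knockout, 8.91, 9.19 and 9.60 in high-fat wildtype and 8.86, 8.42 and 8.11 in high-fat knockout embryos. High-fat knockouts lay below all high-fat wildtype embryos, replicate 1 by little. Control knockout replicate 3 stood with the high-fat knockouts, and it was the lowest control knockout for 20 of the 21 genes. Without it the list median was −0.73.

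Within set A the list median was −0.43 with 21 negative genes, and within set B it was −1.05 with 20. It moved to −0.34 without high-fat wildtype replicate 3 and to −0.31 with Xist detection as a covariate. All 29 alternative settings kept a negative median.

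Nppb, the B-type natriuretic peptide gene of the working myocardium, had the lowest value of the list. It lay at 7.20, 7.78 and 6.78 in control wildtype, 8.41, 7.39 and 5.33 in control knockout and 6.11, 6.41 and 7.29 in high-fat wildtype embryos. In high-fat knockouts it was 5.14, 4.79 and 4.83, undetected in all 3 and at least 2.59-fold below wildtype. The interaction was −1.47 ± 0.86 (interval −3.34 to 0.41), −2.50 within set A and −1.54 within set B.

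Nppa, the atrial natriuretic peptide gene, lies next to Nppb, with their starts 14822 bases apart. It showed 7.30, 7.96 and 7.16 in control wildtype, 8.34, 7.17 and 5.51 in control knockout, 5.10, 6.09 and 7.40 in high-fat wildtype, and 4.85, 4.73 and 4.91 (undetected) in high-fat knockout embryos. High-fat wildtype replicate 1 was itself undetected, close to the knockouts, and the interaction was −0.91 ± 0.91. Myh6, the α-myosin heavy chain gene, lay between 7.59 and 9.17 in high-fat knockouts and between 8.84 and 9.94 in high-fat wildtype embryos, which overlapped, and its interaction was −1.0 ± 0.57.

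The sequences before the starts of these 3 genes are shown because their interactions had the same sign and because natriuretic peptide and myosin promoters are classic targets of cardiac GATA and TEAD factors. Each is the 250 bases before the transcript start in RefSeq (GRCm38.p6), read 5′ to 3′ on the gene's strand. Capitals mark the TATA-box motif, searched as TATAAA and marked at any distance from the start. They also mark GATA-factor motifs, searched in one spelling as TGATAA, with the other spelling being AGATAA. The last motif marked is the M-CAT element of TEAD factors, searched as GGAATG. Both strands were searched, and no marked motifs overlap. The motifs were chosen after the sequences had been seen.
Nppb, chr4:147985650-147985899, + strand: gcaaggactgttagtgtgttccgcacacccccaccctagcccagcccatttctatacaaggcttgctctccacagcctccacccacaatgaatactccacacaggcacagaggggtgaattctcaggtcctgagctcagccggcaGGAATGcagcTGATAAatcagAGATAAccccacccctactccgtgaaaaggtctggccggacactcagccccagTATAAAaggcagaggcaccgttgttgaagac
Nppa, chr4:148000472-148000721, + strand: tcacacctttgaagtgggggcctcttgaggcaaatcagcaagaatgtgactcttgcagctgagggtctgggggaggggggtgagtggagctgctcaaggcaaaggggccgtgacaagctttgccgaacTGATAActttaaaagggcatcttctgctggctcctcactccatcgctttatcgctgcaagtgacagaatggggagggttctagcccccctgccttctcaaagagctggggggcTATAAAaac
Myh6, chr14:54966608-54966857, − strand: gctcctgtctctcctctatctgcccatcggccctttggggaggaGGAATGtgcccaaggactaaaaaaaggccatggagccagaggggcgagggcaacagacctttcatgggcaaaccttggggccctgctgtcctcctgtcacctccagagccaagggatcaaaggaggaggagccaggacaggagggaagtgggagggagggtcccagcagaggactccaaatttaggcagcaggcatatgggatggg

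Nppb held TATAAA 31 bases before its start, AGATAA 84, TGATAA 95 and GGAATG 105 bases before it. Nppa held TATAAA 9 and TGATAA 122 bases before its start, and Myh6 held GGAATG 206 bases before its start. Among the 32851 windows of the same length in the promoter table, 12.4% held TATAAA, 7.94% TGATAA, 9.99% AGATAA and 12.6% GGAATG on either strand. A match describes the letters and is not a bound site.

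Further members of the list had values of the same sign. Actn2, the α-actinin gene of the Z disc, had −1.02 ± 0.59, Myl2, the ventricular myosin light chain gene, −0.84 ± 0.68, and Actc1, cardiac α-actin, −0.66 ± 0.43. Myl2 differed from the rest in that its knockouts lay below wildtype without overlap on both diets, by 1.30 and 2.13 on the log2 scale. Tpm1, tropomyosin 1, was the exception at 0.01 ± 0.24.

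Transcription factors of the heart tube did not lean the same way. Of 19 tested, 9 were positive and 10 negative, with a median of −0.01 that kept its sign under 16 of 29 alternative settings. Nkx2-5 had −0.07 ± 0.27, Isl1, of the second heart field, 0.08 ± 0.22, and Gata4 0.49 ± 0.28. Irx4, the ventricular Iroquois gene, was the lowest at −0.89 ± 0.42 (limma, unadjusted p = 0.0572, and 0.0153 with the array set as a block), and it was detected in 1 of 3 high-fat knockouts and in all other embryos.

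**Figure D4:**
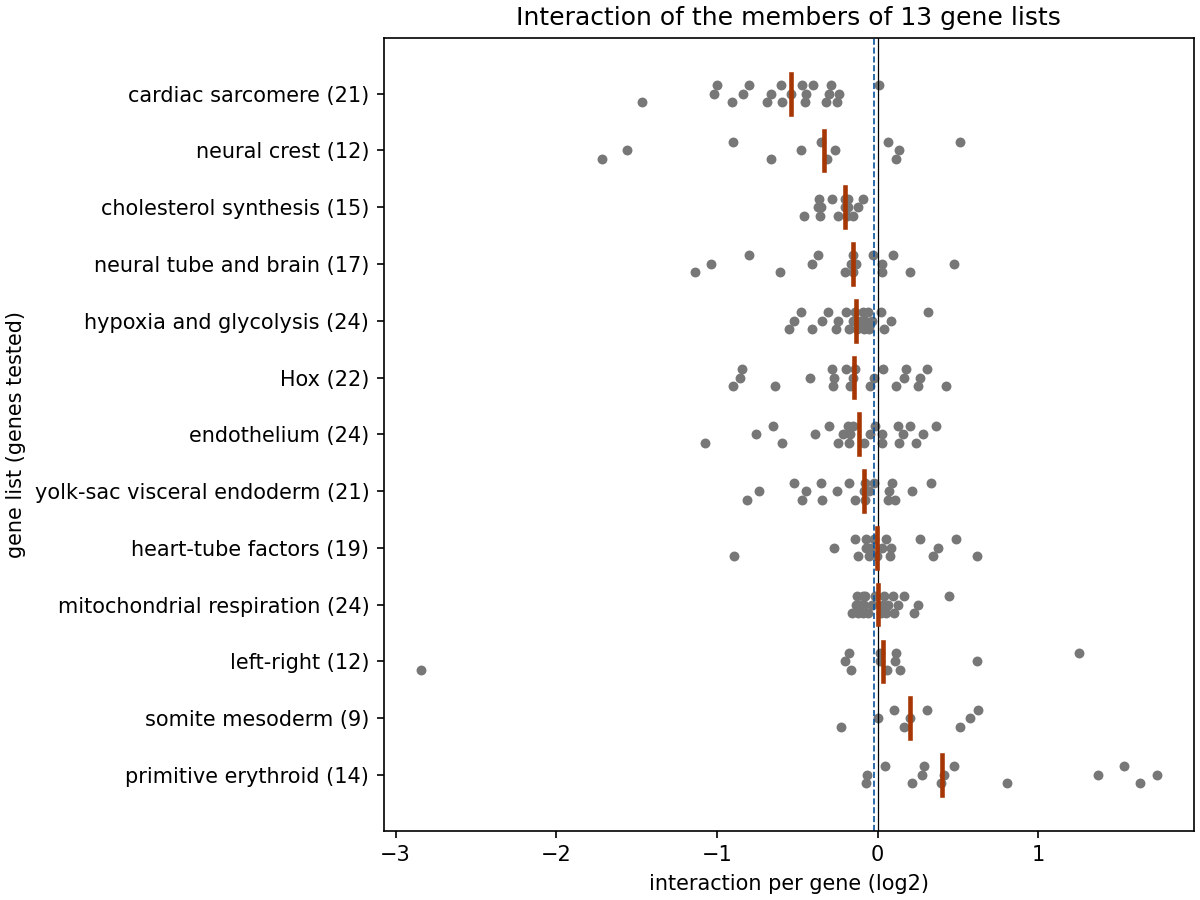
Interaction on the log2 scale of each tested gene (points) of 13 gene lists, with the list median (brown bar), the median of all tested genes at −0.02 (dashed line) and 0 (solid line); the number of genes tested is in parentheses. Cardiac sarcomere genes lie left of 0 except Tpm1, cholesterol synthesis genes all lie left of it but within 0.46 of it, and globin genes spread far to the right in the erythroid list.

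Neural crest genes also lay mostly below 0 in the interaction. Of 19 listed genes 12 were tested, 8 with a negative and 4 with a positive interaction (33.3% positive, against 45.3% of all tested genes). With embryos left out in turn, 7 of the 12 kept 1 sign throughout. The list median was −0.33, −0.54 within set A and −0.44 within set B. It was negative under all 29 alternative settings and −0.22 without control wildtype replicate 3. On the high-fat diet 6 of the 12 had all knockouts below all wildtype embryos, against 3.67% of probes. Crabp1, already picked above for its small p, is among these 6. The members share the crest cells of the same 12 embryos, so their count is not a count of independent observations. Control knockout and wildtype embryos overlapped for all but Twist1.

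Sox10, the factor of migrating crest and its glial and pigment derivatives, lay at 8.90, 9.38 and 8.77 in control wildtype and 9.42, 9.21 and 7.07 in control knockout embryos. It was 8.14, 8.55 and 8.80 in high-fat wildtype and 7.89, 5.88 and 5.22 in high-fat knockout embryos. As with the cardiac genes, control knockout replicate 3 was low and high-fat knockout replicate 1 close to wildtype. The interaction was −1.71 ± 0.95 (interval −3.78 to 0.35), −1.98 in set A, −2.64 in set B and −2.49 to −1.16 with embryos left out in turn.

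Tfap2b, an AP-2 factor of the family that CITED2 co-activates, lay at 7.81, 8.17 and 8.09 in control wildtype, 8.69, 8.03 and 6.56 in control knockout, 7.13, 7.32 and 7.72 in high-fat wildtype and 6.92, 5.35 and 4.43 in high-fat knockout embryos. High-fat knockouts did not overlap with high-fat wildtype embryos, and the last of the knockouts was undetected. Its 3 probes gave −1.56 ± 0.83, −1.31 ± 0.65 and −1.08 ± 0.69. Ednrb, the endothelin receptor of crest cells, had −0.90 ± 0.39 (unadjusted p = 0.0417 in limma), and its high-fat knockouts at 8.72, 8.00 and 8.45 lay below the wildtype range of 8.78 to 9.26.

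Dlx1 was the highest member of the crest list at 0.51, and it changed sign with embryos left out, as given below. Other crest genes, chosen here for their role, had smaller values. Sox9 had −0.35 ± 0.22, Tfap2a, the main AP-2 factor of the neural plate border, −0.31 ± 0.24, Twist1 0.07 ± 0.19 and Msx1 0.12 ± 0.23. Among other partners of CITED2, the co-activator genes Crebbp and Ep300 had −0.38 ± 0.57 and 0.06 ± 0.33, and the sister gene Cited1 had 0.15 ± 0.25. The list of CITED, CBP and AP-2 genes had 7 positive and 3 negative members and a median of 0.16.

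Regional genes of the neural tube held some of the larger negative values. The median of 17 tested genes was −0.16, with 12 negative. It was −0.36 without control wildtype replicate 2, −0.05 without control wildtype replicate 3 and −0.03 with median scaling. Rax, the eye-field and forebrain homeobox gene, lay between 6.04 and 6.83 in the other 9 embryos and at 5.49, 5.83 and 4.55 in high-fat knockouts, the last undetected. Its interaction was −1.14 ± 0.42 (limma, unadjusted p = 0.0204, 0.00380 with the array set as a block), −0.51 within set A and −2.02 within set B. Wnt1, the ligand of the dorsal neural tube and midbrain-hindbrain boundary, had −1.03 ± 0.53, and Gbx2, the hindbrain-side homeobox gene of that boundary, 0.48 ± 0.26.

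Axial genes were mixed. Of 22 Hox genes 14 were negative, with a median of −0.15 (0.08 with array weights and 0.03 without high-fat wildtype replicate 3), from Hoxc6 at −0.90 ± 0.46 to Hoxb6 at 0.42 ± 0.35. Hoxc6 lay at 10.20, 10.07 and 8.87 in high-fat knockouts, all below the high-fat wildtype embryos at 10.54 to 10.96, and its interaction was −0.48 without high-fat knockout replicate 3. Of 9 somite genes 8 were positive, with a median of 0.20 (0.12 without control knockout replicate 2, 0.30 without control knockout replicate 1 and 0.38 with array weights). Ripply2, a regulator of somite boundaries, was the highest at 0.63 ± 0.40 from signals at background. Segmentation-clock and tailbud lists had medians of 0.02 and 0.04.

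Retinoic acid genes showed no common direction, 7 positive and 4 negative with a median of 0.07. Below 0 lay the binding protein genes Crabp1 and Crabp2, the latter at −0.23 ± 0.20, the receptor gene Rxra (−0.57) and the retinoic acid responsive transglutaminase gene Tgm2 (−0.42). Above 0 lay, among others, the enzymes that make or break down the ligand, Rdh10 (0.39 ± 0.22), Aldh1a2 (0.35 ± 0.24) and Cyp26a1 (0.28 ± 0.17). None of these passed, and Crabp1 is the only member with an unadjusted p under 0.05.

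Gut genes carried opposite values at the ends of their list. Trh, the thyrotropin-releasing hormone gene, lay at 10.39, 11.37 and 11.00 in high-fat knockouts and at 9.97, 9.64 and 9.14 in high-fat wildtype embryos, against an overlap on the control diet. Its interaction was 1.07 ± 0.46, 1.31 within set A and 1.34 within set B. Pyy, a gut peptide hormone gene, lay at 6.54, 6.44 and 6.13 in high-fat knockouts and at 7.33, 7.50 and 8.25 in high-fat wildtype embryos, with an interaction of −0.86 ± 0.36.

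Genes of lipid metabolism had small interactions. All 15 tested genes of cholesterol synthesis were negative, with a median of −0.20, values from −0.46 to −0.09 and a lowest unadjusted p of 0.208. In 14 of the 15 the knockout mean lay above wildtype on the control diet, by a median of 0.27, and on the high-fat diet the median difference was −0.03. Knockout and wildtype overlapped for every one of these genes on the control diet.

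Msmo1, a sterol methyl oxidase gene, had the lowest value, with 10.11, 9.67 and 10.51 in control wildtype and 10.18, 10.18 and 11.10 in control knockout embryos. It was 9.70, 9.64 and 10.16 in high-fat wildtype and 9.53, 10.19 and 9.59 in high-fat knockout embryos. The interaction was −0.46 ± 0.42. The list leaned one way only in set B, with a median of −0.75 and 14 of 15 negative, against 0.15 and 4 of 15 in set A, and the median was −0.04 without control knockout replicate 3.

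Fatty acid synthesis, fatty acid uptake and oxidation, and mitochondrial respiration had medians of −0.13 (−0.03 without high-fat knockout replicate 3), 0.03 and 0.00. Hypoxia and glycolysis genes, targets of the HIF-1α factor with which CITED2 competes, were negative in 20 of 24 cases with a median of −0.13. Positive were 16.7%, against 45.3% of all tested genes. Within set A 14 of the 24 were negative (median −0.12) and within set B 21 (median −0.33). Slc2a1, the glucose transporter gene, had −0.18 ± 0.17 and Ankrd37, a hypoxia-induced gene, −0.55 ± 0.65. The median of the hypoxia and glycolysis list was −0.03 without high-fat wildtype replicate 3.

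Markers of tissue outside the embryo proper differed widely between embryos and are given for that reason. Of 28 yolk-sac visceral endoderm genes 21 were tested, and Afp, Alb, Fgb and Serpina1a were detected on 0 arrays. The list mean ran from 7.06 to 8.32 in control wildtype, 7.55 to 9.21 in control knockout, 7.19 to 8.85 in high-fat wildtype and 7.91 to 9.71 in high-fat knockout embryos. These ranges overlapped on both diets. All 21 genes had a knockout mean above wildtype on each diet, by a median of 0.58 on control and 0.52 on high fat. Over all 10764 tested genes, 5733 did on control and 5315 on high fat. The members share tissue of the same embryos, so their count is not one of independent observations. The highest 2 values were those of high-fat knockout replicate 3 and control knockout replicate 3, which were also low in cardiac and crest genes. The median interaction of the list was −0.08, with −0.60 within set A, 1.50 within set B and 0.29 without high-fat knockout replicate 1.

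Trophoblast genes, of which 11 of 20 were tested, had list means of 7.68 to 8.08, 7.93 to 8.10, 7.70 to 8.26 and 7.97 to 8.70 in the same order of groups, and Ctsq, Elf5, Eomes and Tpbpa were detected on 0 arrays. Of the 11 tested trophoblast genes, 9 had a knockout mean above wildtype on each diet, by list medians of 0.09 on control and 0.20 on high fat. Allantois genes, 8 of 12 tested, had means of 6.57 to 6.83, 6.48 to 6.92, 6.79 to 6.88 and 6.80 to 6.95. The part of these tissues in the values above was not tested.

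Primitive red-cell genes had the most positive median of the lists other than Xist alone, 0.40, with 12 of 14 tested genes above 0, and 0.14 without high-fat knockout replicate 3 or 0.89 without high-fat wildtype replicate 1. The embryonic β-globin gene Hbb-y lay at 4.82, 8.02 and 8.87 in control wildtype, 7.10, 5.56 and 4.41 in control knockout, 7.74, 4.95 and 6.66 in high-fat wildtype and 4.61, 7.21 and 8.12 in high-fat knockout embryos. All groups overlapped and each held an undetected embryo. The interaction was 1.74 ± 1.64, −2.71 within set A and 4.91 within set B, and the list median likewise was −0.38 and 1.63. Globin genes are near-identical to one another in part, so signal from related transcripts at a probe cannot be told apart.

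**Figure D5:**
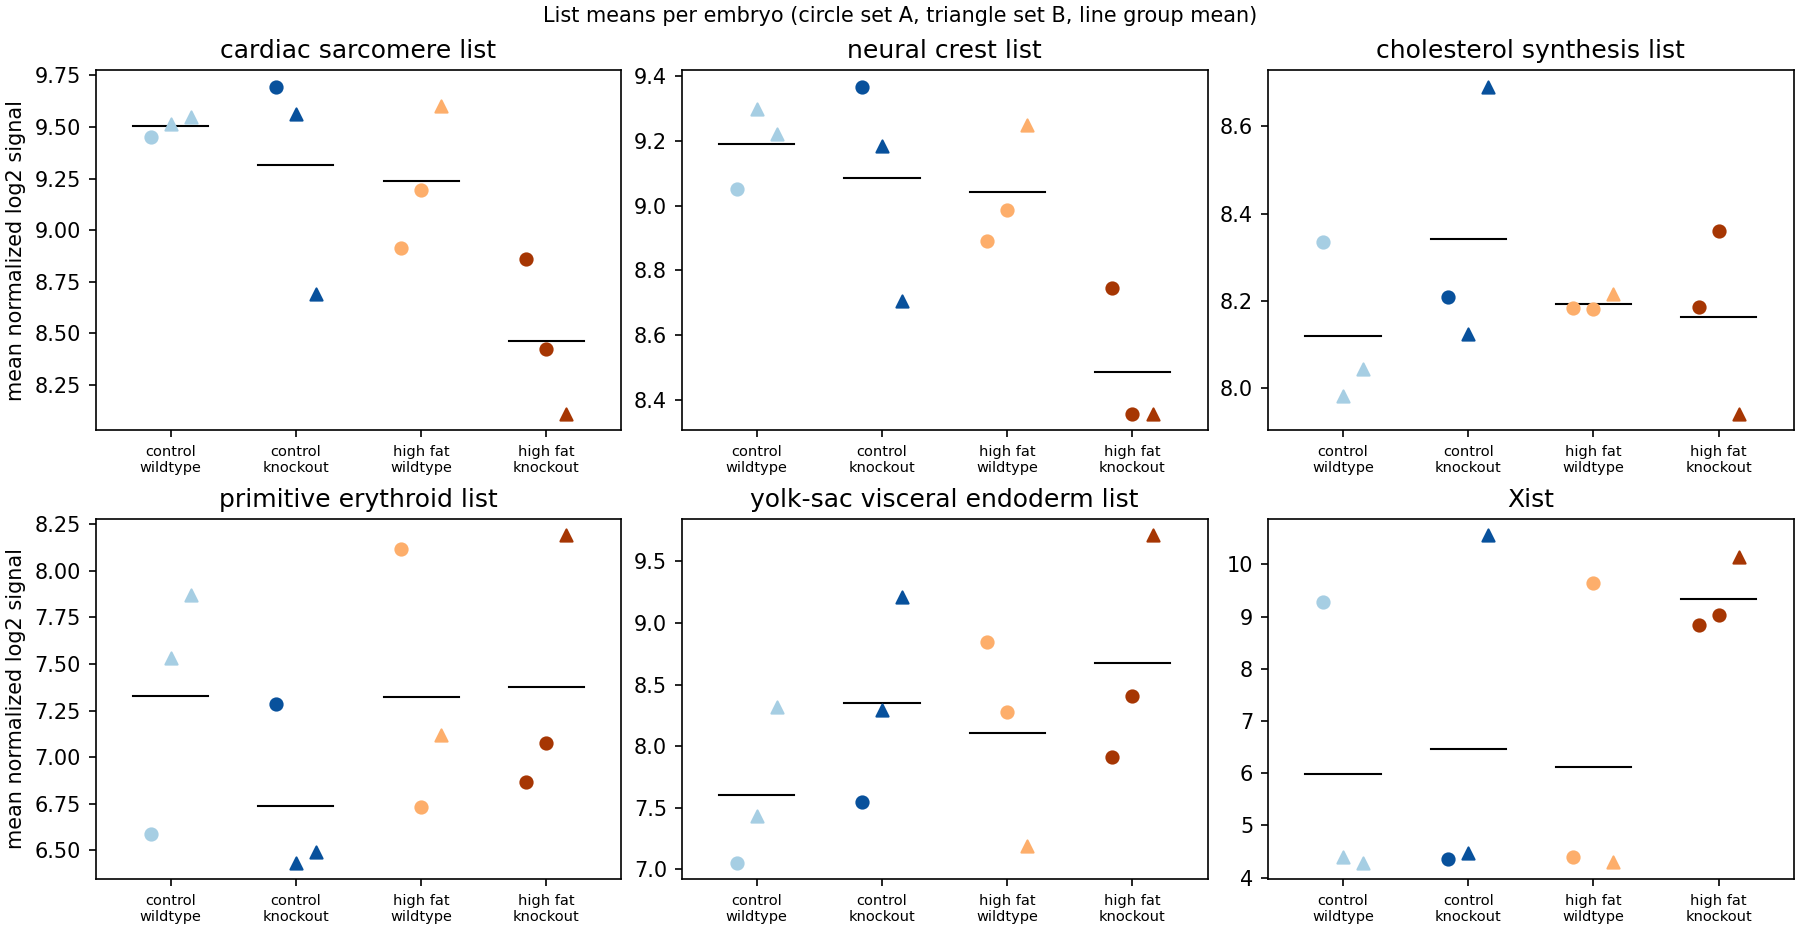
Mean normalized log2 signal of 5 gene lists and of the brightest Xist probe in each embryo, by group (x axis), with circles for array set A, triangles for set B and a line at each group mean; y axes differ and do not start at 0. High-fat knockouts lie below high-fat wildtype embryos for the cardiac and neural crest lists, control knockout replicate 3 lies among them, and Xist is high in all 3 high-fat knockouts.

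Xist had the most positive interaction of the 10764 genes. Xist at its brightest probe lay at 9.28, 4.39 and 4.29 in control wildtype, 4.36, 4.48 and 10.56 in control knockout, 4.39, 9.64 and 4.30 in high-fat wildtype and 8.84, 9.03 and 10.14 in high-fat knockout embryos. Its interaction was 2.75 ± 2.65. Of the Y-linked genes 3 of 4 were tested, and Eif2s3y was detected in 2 of 3 embryos of each other group and in 0 of 3 high-fat knockouts.

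With the mean of the Y-linked genes as a covariate the interaction was −2.95 for Lefty2, −1.57 for Sox10, −1.34 for Nppb and −0.59 for Crabp1. With Xist detection as the covariate it was −3.16 for Lefty2, −1.20 for Sox10 and −0.82 for Nppb. Both fits had 0 adjusted calls, with 251 and 162 probes at an unadjusted p under 0.05. The median interaction was −0.03 over 353 genes on the X chromosome other than Xist and −0.02 over 10390 autosomal genes.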

How the data were processed

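A whole embryo was measured per array. The deposited files hold, per probe, the average bead intensity, the count of beads, the spread between beads and a detection p-value, with BeadStudio 3.2.6 named in the submitters' processing notes. These linear intensities, as deposited, fall below 0 at some probes, so background had been subtracted, and the file headers state no normalization. A detection score given as a fraction was also deposited by the authors. The log2 values of the series table deposited by the authors rank the probes as the array files do, and their normalization is not stated in these sources. The genome build was not stated either.

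From the intensities, background was corrected from the detection p-values and arrays were quantile-normalized with an offset of 16 (neqc in limma 3.58.1, R 4.3.3). Probes with a detection p under 0.01 on at least 3 of 12 arrays were tested, 19595 probes, of which 16537 carried 1 gene symbol and stood for 10764 genes. The annotation gave 1 symbol to 34885 probes, several to 18 and none to 10378. A gene was read at its brightest tested probe. All 4 group means were fitted (lmFit, eBayes), and p-values were adjusted over all tested probes by Benjamini-Hochberg at 0.05. The number of arrays limits the precision. The fit was also run on simulated data with independent noise at each probe. That simulation held no array sets and no spread shared between probes, so it does not speak to either. A fold against a group undetected in all its embryos is a bound, set against the higher of the probe's own value and the lowest detected signal on each array of that group.

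The named genes were Cited2 and the left-right genes, the 12 genes of smallest p in each direction since none passed, the highest and lowest member of each of 33 gene lists, and the genes called in the averaged genotype effect. Other list members are named for their role and were chosen after their values were seen. The comparison, the members and the lists were chosen with earlier results of these data known. Alternatives changed the background correction, offset, scaling, filter, array set, pairing, weights and sex covariates, used the authors' values, or left out each embryo.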

Additional observations from a re-analysis of the deposited data

How the results depend on the processing

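The count of interaction calls was 0 in each of 28 alternatives (limma), while probes at an unadjusted p under 0.05 numbered 247 in the main setting, 2238 with array weights, 894 with title number as a random block and array set, 543 with the array set and 162 with the Xist covariate. With the replicate block the count was 0, with 504 probes at an unadjusted p under 0.05. Same-numbered embryos correlated at −0.264 to 0.682 in their deviations, over 0.1 in 13 of 18 pairs. Embryos that shared a title number gave −0.525 to 0.367, over 0.1 in 2 of 6 pairs. The correlation within title numbers that limma estimated over all probes was −0.111, or 0.213 with the array set in the model. Neither number was taken as a pairing in the main setting. Leaving out single embryos gave 170 (without control knockout replicate 2) to 535 (without high-fat knockout replicate 3) such probes. Near background, a probe's differences are compressed, and only a bound can be given.

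Gene values turned sign as follows, and the cause was not tested. With array weights, Nodal was 0.0054, Tpm1 −0.26, Apob −0.60, Rhox9 0.084, Eif2s3y 0.82, Xist −0.92, En2 0.11 and E030030I06Rik −0.10. With median scaling, which moved the median of all probes to 0.10, Tfrc was 0.034, Srebf2 0.045, En2 0.031 and Csmd3 −0.016. With the Xist covariate, Apob was −0.18, Eif2s3y 0.93, Xist −0.89 and En2 0.041. With the Y-linked mean Eif2s3y was 0.12, and 0.11 with the array set added. With an offset of 50 En2 was 0.13, and with the authors' values Tpm1 was −0.043.

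With embryos left out in turn, values ran from −0.46 to 1.20 for Apob, −0.060 to 0.39 for Cdk1, −0.080 to 0.15 for Csmd3, −0.14 to 1.17 for Dlx1, −0.76 to 0.10 for Dnajb9, −0.068 to 0.60 for E030030I06Rik, −0.78 to 0.52 for Eif2s3y, −0.49 to 0.11 for En2, −0.085 to 0.42 for Hsp90aa1, −0.35 to 0.055 for Lats1, −1.08 to 0.41 for Nodal, −0.030 to 1.68 for Prl2c2, −0.71 to 0.14 for Rhox9, −0.23 to 0.15 for Srebf2, −0.13 to 0.75 for Tbx4, −0.20 to 0.078 for Tfrc, −0.15 to 0.14 for Tpm1 and −0.26 to 0.025 for Uty.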
